A study of Homo sapiens with 9 samples.

Results

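The RAP GTPases RAP2A, RAP2B, RAP2C, RAP1A and RAP1B and the kinases TNIK, MINK1 and MAP4K4 were followed in the human glioma line U87 after a microRNA duplex had been transfected. RAP2A is the reported target of the unedited form of the microRNA miR-376a*. The other genes were taken as its paralogs and as the kinases that RAP2 proteins bind. Every probe set that the platform's probe table assigned to 1 of these 8 genes alone was used, which gave 29 probe sets of the 41097 with a single gene symbol, and 8 genes of 19775.

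The study held 9 Affymetrix arrays in 3 groups of 3. U87 cells received 50 nM of the duplex miR-376a*A (the unedited form), of miR-376a*G (the edited form) or of a control duplex (miR-control), carried by Lipofectamine RNAiMAX in each group, and RNA was taken after 72 h. The labels call the replicates biological but do not say which cultures or days they came from, so p-values measure only the spread between these arrays. All 3 groups were of the same cell line and all were transfected, so the data hold no untransfected cells and no second line.

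RAP proteins are small GTPases of the RAS family that switch between an active, GTP-bound state and an inactive, GDP-bound state. Exchange factors load them with GTP, GTPase-activating proteins return them to the GDP state, and the active form binds effector proteins. RAP1 is best known for the control of integrin adhesion and cell junctions. RAP2 binds the related kinases TNIK, MINK1 and MAP4K4 and, through kinases of that family, has been linked to cell spreading, migration and the Hippo pathway, in which a kinase cascade holds the coactivator YAP1 out of the nucleus.

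A microRNA pairs with its targets mainly through its seed, bases 2 to 8, so an edited base inside the seed changes which transcripts can pair with it. The labels give no duplex sequence and no edited position. In microRNA names an asterisk formerly marked the less abundant arm of the hairpin, which for miR-376a is the 5p arm. The reference 5p forms of both miR-376a genes are shown because they give the seeds that a target of an unedited form would face (RefSeq, GRCh38.p14, plus strand, chr14:101040788-101040809 for MIR376A1 and chr14:101040080-101040100 for MIR376A2). Capitals mark the seed.
hsa-miR-376a-5p: gUAGAUUCuccuucuaugagua
hsa-miR-376a-2-5p: gGUAGAUUuuccuucuauggu
A full match to the first seed in a transcript reads GAAUCUA and a full match to the second reads AAUCUAC. Compared position by position, the seeds share 1 of 7 bases. Shifted by 1 base, however, both seeds hold the stretch UAGAUU, and both matches hold AAUCUA. Transcript sequences were not used here, so no seed match was looked for in the 8 genes.

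Signal values were linear and already scaled by the authors, with a trimmed mean of 100.01 on each array and an array median of 18.0 to 24.6. A signal compares 1 probe set between arrays. It does not compare the levels of different probe sets or genes. Of the 29 probe sets, 24 lay above their array's median on at least 3 arrays and were tested: 4 of 5 for RAP2A, 4 of 4 for RAP2B, 2 of 2 for RAP2C, 2 of 4 for RAP1A, 1 of 1 for RAP1B, 3 of 4 for TNIK, 3 of 4 for MINK1 and 5 of 5 for MAP4K4. Each gene is represented below by its leading probe set, the brightest over the 9 arrays. Of the markers of the labelled cell type, VIM and CD44 were bright on all 9 arrays (2110 to 2975 and 1470 to 2193), NES lay between 32.4 and 61.6, and the astrocyte markers GFAP and S100B lay above the array median on 0 arrays. Of the markers of other cell types, the neuronal SYT1 (54.6 to 162) and MAP2 (72.9 to 517), the endothelial PECAM1 (38.7 to 135) and the oligodendrocyte MBP (19.5 to 40.3) lay above it on 8 or 9 arrays, and the other leukocyte, epithelial, endothelial, neuronal and oligodendrocyte markers measured on 0 to 2. Their part in the results was not tested.

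Over the 24316 probe sets tested, 2 arrays stood apart from the others of their label. The array labelled as replicate 1 of miR-376a*A had Pearson correlations of 0.985 to 0.988 with replicates 2 and 3 of miR-control, but of 0.916 to 0.926 with the other 2 arrays of its own label. The array labelled as replicate 1 of miR-control had correlations of 0.979 to 0.988 with replicates 2 and 3 of miR-376a*A, but of 0.925 to 0.928 with the other 2 control arrays. The 3 miR-376a*G arrays correlated with each other at 0.983 to 0.985. The arrays were kept in the groups their labels give, and the comparisons were run with all 9 arrays and without both of these, which leaves 7 arrays and 2 each for miR-376a*A and miR-control. Both were picked from these same data for resembling the opposite group, so leaving them out sets miR-376a*A and control further apart by design. The p-values without both arrays are therefore not an independent test of that comparison.

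RAP2A, the reported target, gave no call with all 9 arrays in the deposited scaling, and the miR-376a*A and control groups each held 1 array near the level of the opposite group. Its leading probe set, 221830_at, had signals of 895, 412 and 531 in the miR-376a*A arrays (replicates 1 to 3), 899, 888 and 863 in the miR-376a*G arrays and 353, 702 and 784 in the control arrays. The miR-376a*G arrays lay close together and above every control array, and the miR-376a*A and control groups overlapped. The means were 612 ± 252 for miR-376a*A, 883 ± 18.2 for miR-376a*G and 613 ± 229 for control (SD, n = 3 each). The log2 difference between miR-376a*A and control was 0.00 (SE 0.33, limma adjusted p = 0.998). In these bulk RNA samples, fewer cells that express a gene and less RNA per cell cannot be told apart.

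Without both arrays that stood apart, RAP2A fell by 0.66 on the log2 scale with miR-376a*A relative to control (SE 0.12, limma adjusted p = 0.00115). In that setting, which was chosen from these same data, 22% of all tested probe sets fell and 18.2% rose. The 2 remaining miR-376a*A arrays averaged 471 and the 2 remaining control arrays 743. Leaving out 1 of these arrays alone gave -0.31 without miR-376a*A replicate 1 and -0.35 without miR-control replicate 1, neither called. Between miR-376a*G and control the difference was 0.61 (SE 0.33, adjusted p = 0.194) with all 9 arrays and 0.25 (adjusted p = 0.0672) without both. Relative to miR-376a*G, the miR-376a*A difference was -0.60 (adjusted p = 0.183) with all 9 and -0.92 (SE 0.11, adjusted p = 2.95e-05) without both. Scaled to the bacterial hybridisation control probe sets in place of the deposited scaling, and with all 9 arrays, RAP2A was called higher with miR-376a*G than with control (1.01, adjusted p = 0.0271) and lower with miR-376a*A than with miR-376a*G (-1.27, adjusted p = 0.00637). That scaling put the median of all probe sets at 0.50 and -0.79 in these 2 comparisons. Of 24316 probe sets, 10000 were called higher in the first and 15081 lower in the second. RAP2A was called in neither after quantile normalization (0.62 and -0.63) or when centred on array medians (0.38 and -0.36).

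The second bright RAP2A probe set, 225585_at, followed the same order of arrays within miR-376a*A and control, but not the high level with miR-376a*G. Its signals were 735, 375 and 578 with miR-376a*A, 562, 615 and 571 with miR-376a*G and 329, 592 and 792 with control. Here the miR-376a*G arrays lay within the range of both other groups. With all 9 arrays in the deposited scaling no comparison was called, with a difference of 0.01 between miR-376a*A and control and of 0.12 between miR-376a*G and control. Without both arrays it fell by 0.56 with miR-376a*A relative to control (SE 0.18, limma adjusted p = 0.0339), and between miR-376a*G and control it was -0.23 (adjusted p = 0.261). It was called lower, when scaled to the hybridisation controls, with miR-376a*A than with miR-376a*G (-0.77, adjusted p = 0.0429). The median of all probe sets was -0.79 in that comparison and scaling, and 225585_at stood at 0.02 relative to it.

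The log2 ratio of 221830_at to 225585_at within each array does not depend on the scaling of the arrays. It was 0.28, 0.14 and -0.12 with miR-376a*A, 0.68, 0.53 and 0.60 with miR-376a*G and 0.10, 0.24 and -0.01 with control. Every miR-376a*G array lay above every array of the other groups. The mean was 0.60 ± 0.07 with miR-376a*G against 0.11 ± 0.13 with control (SD, n = 3 each), a difference of 0.49. The exact two-sided permutation p was 0.1, the smallest that 3 arrays against 3 allow. A ratio of MAP4K4 probe sets, 218181_s_at to 206571_s_at, also reached 0.1 in the same test between miR-376a*G and control (difference -0.30). For miR-376a*A and control the RAP2A ratio differed by -0.01 (exact permutation p = 1). Which transcript forms each probe set reads was not analysed here.

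**Figure D1:**
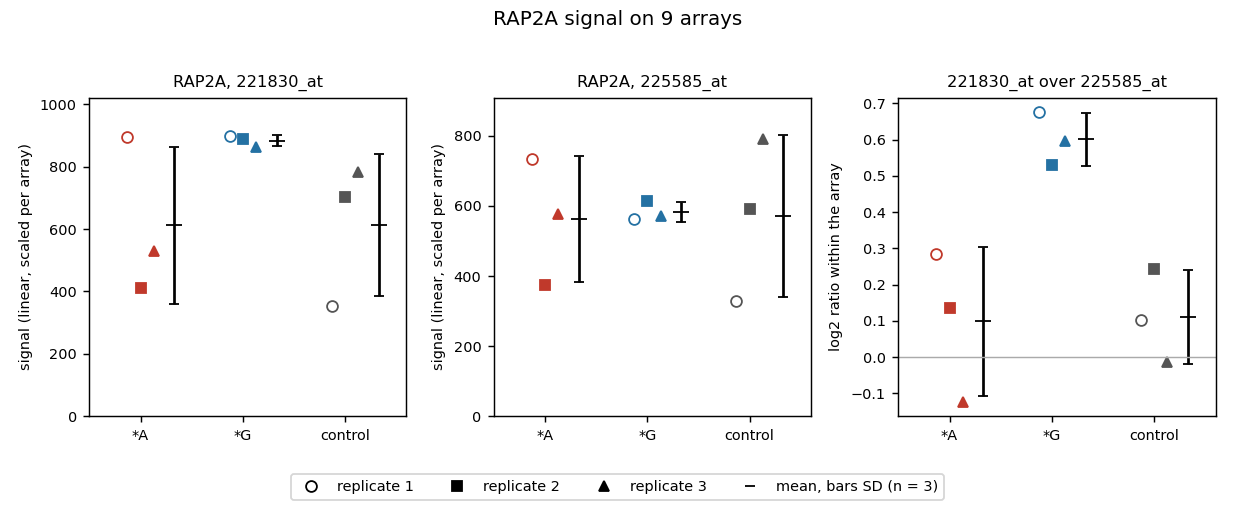
Linear signal of the 2 bright RAP2A probe sets and the log2 ratio between them on each array (y axes), by group from left to right miR-376a*A, miR-376a*G and control (x axis). Each symbol is 1 array, open circles are the arrays labelled replicate 1, and black bars are mean and SD (n = 3). For 221830_at the arrays labelled replicate 1 sat at 895 for miR-376a*A and at 353 for control, each away from the other 2 of its group, and the ratio of the 3 miR-376a*G arrays lay above all others.

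The remaining RAP2A probe sets were dim. Probe set 1556808_at lay between 35.3 and 53.3 on all arrays and was not called in any comparison, with or without both arrays, in the deposited scaling. Scaled to the hybridisation controls it was called lower with miR-376a*A than with miR-376a*G (-0.96, limma adjusted p = 0.00387). Relative to the median of all probe sets, which was -0.79 there, it stood at -0.18. Probe set 1556809_a_at had signals of 23.8, 6.85 and 7.98 with miR-376a*A, 12.3, 18.4 and 15.3 with miR-376a*G and 11.6, 26.0 and 27.2 with control. As for the bright probe sets, the replicate 1 arrays of miR-376a*A and control sat near the level of the opposite group. It was tested only because the array labelled miR-376a*A replicate 1 and control replicates 2 and 3 lay above their array medians, and the 6 other arrays lay below theirs. It was called lower with each microRNA relative to control without both arrays, but since the arrays below the median carry little signal no size is given. The untested 214103_s_at stayed between 0.65 and 3.11.

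RAP2B, the paralog of RAP2A, was high on all 3 miR-376a*G arrays, and 1 of its 4 probe sets rose with all 9 arrays in the deposited scaling. The leading probe set, 213923_at, had signals of 534, 947 and 883 with miR-376a*A, 1001, 1004 and 1001 with miR-376a*G and 913, 680.3 and 615 with control. The miR-376a*G arrays lay above all others, and again each replicate 1 array of the other groups sat with the opposite group. The difference between miR-376a*G and control was 0.47 (SE 0.22, limma adjusted p = 0.135) with all 9 arrays and 0.63 (SE 0.08, adjusted p = 5.73e-05) without both.

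The RAP2B probe set that rose with all 9 arrays was 214488_at. It had signals of 24.2, 39.3 and 41.1 with miR-376a*A, 65.3, 58.1 and 65.9 with miR-376a*G and 47.0, 27.0 and 20.9 with control, and the miR-376a*G arrays overlapped neither other group. It was higher by 1.05 with miR-376a*G than with control (SE 0.30, limma adjusted p = 0.0269). This call was lost without any 1 of the 3 miR-376a*G arrays or without control replicate 2 or 3, with adjusted p between 0.0607 and 0.09. Probe set 227897_at lay between 255 and 488 with miR-376a*A, 489.9 and 639 with miR-376a*G and 259 and 496 with control, a miR-376a*G difference from control of 0.74 (limma adjusted p = 0.0807). Probe set 238622_at lay between 16.4 and 42.9, 31.7 and 41.3, and 16.8 and 33.5 in the same groups, a difference of 0.61 (adjusted p = 0.228). Neither was called with all 9 arrays in the deposited scaling. Without both arrays all 4 RAP2B probe sets rose with miR-376a*G, by 0.63 to 1.37, and all 4 also rose with miR-376a*A relative to control, by 0.50 (213923_at, limma adjusted p = 0.000898), 0.67, 0.73 and 0.90. RAP2A and RAP2B thus had opposite signs between miR-376a*A and control without both arrays, and that difference between the genes was not tested.

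RAP2C, the third RAP2 GTPase, fell with miR-376a*G on both of its probe sets, relative to control and to miR-376a*A, in the deposited scaling but not when scaled to hybridisation controls, and gave no call between miR-376a*A and control. The leading probe set, 218669_at, had signals of 644, 540.1 and 603 with miR-376a*A, 455, 444 and 439.9 with miR-376a*G and 559, 593 and 605 with control. All 3 miR-376a*G arrays lay below all other arrays, and the control array labelled replicate 1 lay within the range of miR-376a*A replicates 2 and 3. Relative to control it fell by 0.39 with miR-376a*G (SE 0.10, limma adjusted p = 0.0143), or by 0.42 (adjusted p = 0.0011) without both arrays. The call was lost without miR-376a*G replicate 3 (adjusted p = 0.0551), control replicate 2 (0.0506) or control replicate 3 (0.053), with differences of -0.38, -0.38 and -0.37.

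The second RAP2C probe set, 218668_s_at, had signals of 295, 222 and 302 with miR-376a*A, 205, 173 and 197 with miR-376a*G and 271, 321 and 268 with control. All miR-376a*G arrays again lay below all others. It fell by 0.58 with miR-376a*G relative to control (SE 0.15, limma adjusted p = 0.019), a call lost without miR-376a*G replicate 2 or 3 or control replicate 2 (adjusted p between 0.0525 and 0.0743). Relative to miR-376a*G, miR-376a*A was higher by 0.41 for 218669_at (adjusted p = 0.0102, kept without any 1 array) and by 0.50 for 218668_s_at (adjusted p = 0.0307). The last call was lost without miR-376a*A replicate 1 or 3 or any miR-376a*G array (adjusted p between 0.0593 and 0.106). Without both arrays 218668_s_at fell by 0.62 with miR-376a*G relative to control, and miR-376a*A was higher than miR-376a*G by 0.35 and 0.44 on the 2 probe sets, all called. The differences of miR-376a*A from control were 0.02 (adjusted p = 0.968) and -0.08 (adjusted p = 0.924), and -0.07 and -0.17 without both arrays.

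The RAP2C calls were kept in the other scalings and were lost only when arrays were scaled to the hybridisation controls. After quantile normalization 218669_at and 218668_s_at differed by -0.35 and -0.56 between miR-376a*G and control (limma adjusted p = 0.0152 and 0.0154). Centred on array medians they differed by -0.62 and -0.81 (adjusted p = 0.0156 and 0.0133). Under each of these scalings miR-376a*A was called higher than miR-376a*G on both probe sets. When arrays were scaled to the hybridisation controls, the difference of 218669_at was 0.01 between miR-376a*G and control and -0.26 with miR-376a*A relative to miR-376a*G, both uncalled. That scaling moved the median of all probe sets between miR-376a*G and control to 0.50, against 0.10 as deposited. Relative to the median of all probe sets, 218669_at stood at -0.49 both as deposited and when scaled to the hybridisation controls. This value had to be equal, since the rescaling moves all probe sets of an array by the same amount. The same shift added calls elsewhere: over the 24 probe sets it gave 10 higher and 0 lower between miR-376a*G and control, among them all 4 of RAP2B and all 3 tested of MINK1. Of all 24316 probe sets, 10000 were called higher and 1850 lower under that scaling, so the members' count that rose was near the background. The hybridisation controls averaged 7.82 to 7.93 in log2 signal on the miR-376a*A arrays, 7.13 to 7.29 on the miR-376a*G arrays and 7.51 to 7.70 on the control arrays, without overlap between groups. What set these levels apart was not tested.

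RAP1A and RAP1B gave no call in any comparison with all 9 arrays in the deposited scaling. RAP1A, 202362_at, had signals of 565, 687 and 740.0 with miR-376a*A, 772, 818 and 870.2 with miR-376a*G and 699, 615 and 654 with control. The miR-376a*G arrays lay above all others, by 0.32 over control (SE 0.12, limma adjusted p = 0.064) with all 9 arrays and by 0.37 (adjusted p = 0.00325) without both, where it was called. With all 9 arrays it was also called after quantile normalization (0.35, adjusted p = 0.0342) and when scaled to the hybridisation controls (0.72, adjusted p = 0.00123). Centred on array medians it was not called (0.09, adjusted p = 0.633). Relative to miR-376a*G, miR-376a*A was at -0.31 as deposited (adjusted p = 0.0654). For miR-376a*A a lower call came after quantile normalization (-0.37) and with the hybridisation controls (-0.98), but not with median centring (-0.06, adjusted p = 0.738). The second tested RAP1A probe set, 228548_at, lay between 95.4 and 129 with miR-376a*A, 105 and 115 with miR-376a*G and 87.4 and 120.1 with control, and differed by 0.04 between miR-376a*G and control (limma adjusted p = 0.868). It was called lower with miR-376a*A than with miR-376a*G when scaled to the hybridisation controls (-0.70, adjusted p = 0.00809). Relative to the median of all probe sets, which was -0.79 there, it stood at 0.08. The untested RAP1A probe sets, 1555339_at and 1555340_x_at, stayed between 0.89 and 10.2.

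RAP1B was represented by 200833_s_at alone, with signals of 937, 1713 and 1658 with miR-376a*A, 1249, 1426 and 1209.8 with miR-376a*G and 1491, 904 and 928 with control. The arrays labelled replicate 1 of these groups again sat beside the opposite group. With all 9 arrays miR-376a*A differed from control by 0.36 (SE 0.26, limma adjusted p = 0.899). Without both, RAP1B rose by 0.88 (SE 0.09, adjusted p = 3.89e-05). With miR-376a*G it was higher than control by 0.26 (adjusted p = 0.465) with all 9 arrays, by 0.50 (adjusted p = 0.000581) without both, and by 0.66 (adjusted p = 0.0468) when all 9 were scaled to the hybridisation controls. It was not called after quantile normalization (0.31) or when centred on array medians (0.03).

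**Figure D2:**
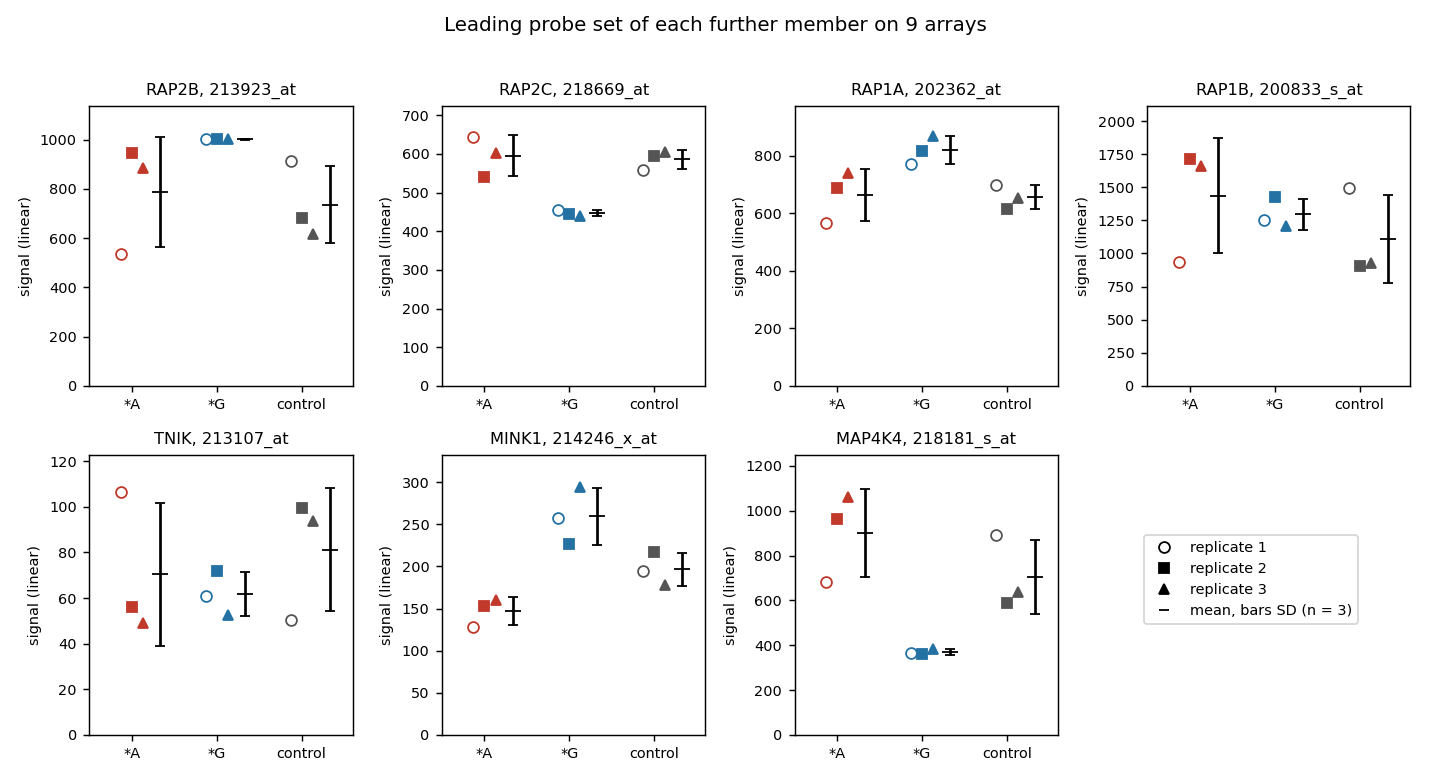
Linear signal of the leading probe set of RAP2B, RAP2C, RAP1A, RAP1B, TNIK, MINK1 and MAP4K4 (y axis, starting at 0) by group from left to right miR-376a*A, miR-376a*G and control (x axis). Each symbol is 1 array, open circles are the arrays labelled replicate 1, and black bars are mean and SD (n = 3). The 3 miR-376a*G arrays of RAP2C and MAP4K4 lay below all others (RAP2C turned to 0.01 between miR-376a*G and control when scaled to the hybridisation controls), and the replicate 1 arrays of RAP2B, RAP1B, TNIK and MAP4K4 sat toward the opposite group.

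MAP4K4, a kinase bound by RAP2 that is known for cell migration and for phosphorylating Hippo pathway kinases, had the largest differences among the 8 genes in the comparison of the microRNA forms in the deposited scaling, but not when scaled to the hybridisation controls, where RAP2B 214488_at stood at -1.54 and MAP4K4 at 0.59 at most. The leading probe set, 218181_s_at, had signals of 684, 962 and 1063 with miR-376a*A, 364, 359 and 385 with miR-376a*G and 890.4, 586 and 636 with control. Those of miR-376a*G lay close together and below all others. Relative to control it fell by 0.91 with miR-376a*G (SE 0.19, limma adjusted p = 0.00712), or by 0.72 (adjusted p = 3.65e-05) without both arrays. The call was kept without any 1 array and was lost when arrays were scaled to the hybridisation controls (-0.51, adjusted p = 0.0534).

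With all 9 arrays in the deposited scaling 2 of the 5 MAP4K4 probe sets were called lower with miR-376a*G than with control. Neither of them was called when scaled to the hybridisation controls. Probe set 222548_s_at had signals of 295, 513 and 557 with miR-376a*A, 172, 187 and 188 with miR-376a*G and 490.1, 292 and 286 with control. It fell by 0.91 relative to control (SE 0.27, limma adjusted p = 0.0303), a call lost without any 1 of the miR-376a*G arrays or control replicate 1 (adjusted p between 0.0675 and 0.093). Probe set 206571_s_at lay between 404 and 768 with miR-376a*A, 247 and 274 with miR-376a*G and 315 and 566 with control, a miR-376a*G difference of -0.60 (limma adjusted p = 0.116). Probe set 222547_at lay between 316 and 559, 235 and 257, and 319.8 and 514 in the same groups, a difference of -0.63 (adjusted p = 0.0785). On both, the miR-376a*G arrays lay below all others without a call. Without both arrays that stood apart 4 of the 5 were called lower, by 0.34 to 0.72. The exception was 1558732_at, with signals of 24.5 to 49.6 over the 9 arrays, at 0.15 (adjusted p = 0.543).

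Relative to miR-376a*G, miR-376a*A was higher on 4 of the 5 MAP4K4 probe sets. The differences were 1.26 for 218181_s_at (SE 0.19, limma adjusted p = 0.00119), 1.14 for 206571_s_at, 0.88 for 222547_at and 1.26 for 222548_s_at. The call of 222547_at was lost without miR-376a*A replicate 2 or 3 or any miR-376a*G array (adjusted p between 0.0527 and 0.0761), and the other 3 were kept without any 1 array. All 4 calls were kept after quantile normalization and when centred on array medians. Scaled to the hybridisation controls only the call of 218181_s_at was kept, and 206571_s_at, 222547_at and 222548_s_at stood at 0.47, 0.22 and 0.59 (adjusted p = 0.146, 0.459 and 0.0756). Without both arrays the 4 differences were 1.45, 1.39, 1.15 and 1.55, all called. All 5 differences of miR-376a*A from control lay above 0, from 0.26 to 0.54, none called. Without both arrays all 5 rose with miR-376a*A, by 0.73 to 1.05 (adjusted p = 0.000124 for 218181_s_at). With both arrays left out, 4 of the 5 probe sets were thus called above control with miR-376a*A and below it with miR-376a*G.

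TNIK, which binds RAP2 and acts in WNT signalling and the actin cytoskeleton, gave no call with all 9 arrays in the deposited scaling. The leading probe set, 213107_at, had signals of 106, 55.9 and 48.9 with miR-376a*A, 60.9, 72.0 and 52.7 with miR-376a*G and 50.3, 99.7 and 93.7 with control. Each replicate 1 array of miR-376a*A and control sat with the opposite group. The difference between miR-376a*A and control was -0.23 (SE 0.34, limma adjusted p = 0.91). Without both arrays all 3 tested TNIK probe sets fell with miR-376a*A relative to control, by 0.87, 0.92 and 1.24 (adjusted p = 0.0022 for 213107_at). With miR-376a*G the leading probe set differed from control by -0.34 (adjusted p = 0.475), and by -0.65 (adjusted p = 0.00504) without both. Probe sets 211828_s_at (35.9 to 97.2 over the 9 arrays) and 213109_at (21.3 to 60.0) had the same order of replicate 1 against replicates 2 and 3 in the miR-376a*A and control groups. For 213109_at, miR-376a*A was at -0.56 relative to miR-376a*G as deposited (limma adjusted p = 0.352) and was called lower at -1.23 (adjusted p = 0.0348) when scaled to the hybridisation controls. It was not called after quantile normalization (-0.43) or when centred on array medians (-0.32). The untested 239288_at stayed between 2.51 and 17.5.

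MINK1, the third of the RAP2-binding kinases, was lower with miR-376a*A than with miR-376a*G. The leading probe set, 214246_x_at, had signals of 128, 153 and 161 with miR-376a*A, 257, 227 and 294 with miR-376a*G and 194, 217 and 178 with control. The 3 groups did not overlap. Set against each other, miR-376a*A and miR-376a*G differed by -0.81 (SE 0.15, limma adjusted p = 0.00307), kept without any 1 array, and -0.71 (adjusted p = 0.000619) without both. Relative to control it was -0.42 with miR-376a*A (SE 0.15, adjusted p = 0.899) and 0.40 with miR-376a*G (adjusted p = 0.0723), neither called with all 9 arrays as deposited. The miR-376a*G difference was called when scaled to the hybridisation controls (0.80, adjusted p = 0.00679), but not after quantile normalization (0.43) or when centred on array medians (0.16). Without both, the miR-376a*G difference was called higher at 0.39 (adjusted p = 0.0239) and the miR-376a*A difference was -0.33 (adjusted p = 0.086).

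Probe set 215909_x_at of MINK1 also fell with miR-376a*A relative to miR-376a*G, by 0.82 (SE 0.25, limma adjusted p = 0.0289). That call was lost without miR-376a*A replicate 1 or 3 or any miR-376a*G array (adjusted p between 0.0597 and 0.0988) and when arrays were centred on their medians (-0.57, adjusted p = 0.0641). Without both arrays it was -0.69 (adjusted p = 0.0309). All 3 tested MINK1 probe sets carry the suffix x, which the manufacturer gives to probe sets that can also bind other transcripts, so their signal may not be of MINK1 alone. The third, 209241_x_at, lay between 30.7 and 47.4 with miR-376a*A, 34.0 and 60.4 with miR-376a*G and 30.7 and 42.4 with control and was not called in any comparison in the deposited scaling. Scaled to the hybridisation controls it was called higher with miR-376a*G than with control (0.78, limma adjusted p = 0.0462) and lower with miR-376a*A than with miR-376a*G (-1.10, adjusted p = 0.00776). Neither comparison was called after quantile normalization or when centred on array medians. The untested 214625_s_at stayed between 1.69 and 18.9.

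The calls of the 24 probe sets are set beside the share of all probe sets called. Between miR-376a*A and control 0 were called by limma, with 1 at an unadjusted p under 0.05, and over all 24316 probe sets the share called was 0% (843 at an unadjusted p under 0.05). The members' median difference was 0.01, against -0.02 over all probe sets. Without both arrays 10 rose and 6 fell, where 18.2% of all probe sets rose and 22% fell. The count that rose was above the background, but 9 of the 10 were probe sets of only 2 genes, RAP2B and MAP4K4, and the last was of RAP1B. The 6 that fell were the 3 of TNIK and 3 of RAP2A, 1 of them the 1556809_a_at that was tested only through the arrays where it is high.

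Between miR-376a*G and control 1 probe set rose and 4 fell with all 9 arrays, where 16.6% of all rose and 15.6% fell. The count that fell was near the background and the count that rose was below it. Without both arrays 8 rose and 9 fell, against a background of 29.1% and 25.1%. The members' median was 0.15 with all 9 arrays, against 0.10 over all probe sets. With miR-376a*A relative to miR-376a*G, 6 were higher and 2 lower, against 16.6% and 19.6% of all, and 8 and 7 without both arrays, against 25.5% and 32.8%. Each group enters 2 of the 3 comparisons, so their values share arrays.

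**Figure D3:**
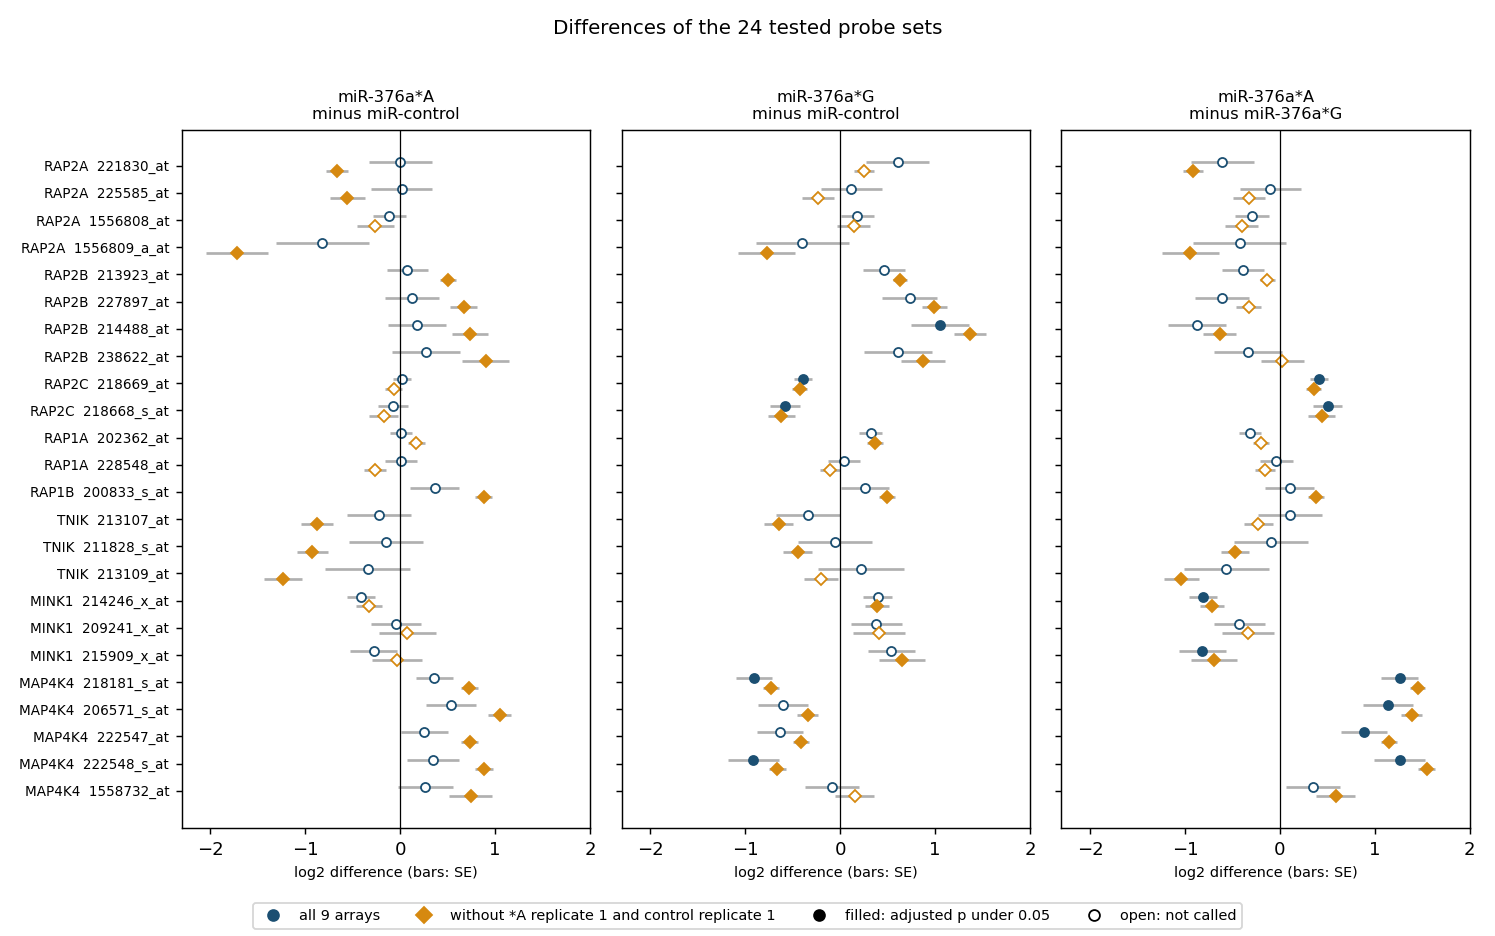
Log2 difference (x axis, bars are SE) of each of the 24 tested probe sets (y axis) in the comparisons miR-376a*A minus control, miR-376a*G minus control and miR-376a*A minus miR-376a*G. Circles are from all 9 arrays, diamonds are without both arrays that stood apart, and filled symbols are called at an adjusted p under 0.05. In the first panel 0 circles and 16 diamonds are filled, and RAP2C was called lower with miR-376a*G by both (0.01 when scaled to the hybridisation controls).

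The genes whose leading probe set ran most like RAP2A over the 9 arrays were HSPA9, a mitochondrial chaperone (Pearson r = 0.995), the zinc finger gene ZNF684 (0.993), the folate enzyme MTHFD1 (0.993), the translation factor DENR (0.992) and the thioredoxin reductase TXNRD1 (0.992). Among the members, RAP2A ran most closely with TNIK (r = 0.54) and most oppositely to MAP4K4 (-0.80) and RAP1B (-0.62). These values describe the same 9 arrays, of which the 2 that stood apart are shared by every gene, and carry no test.

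Around the 8 genes, 82 genes of RAP regulation and neighbouring pathways were listed, of which 61 were tested, 1 leading probe set each, 8 had no probe set of their own and were not analysed here, and 13 had one that did not lie above the array median on 3 arrays. With miR-376a*A, 0 of the 61 were called against control with all 9 arrays. Between miR-376a*G and control 18% of all 12607 genes tested rose and 15.3% fell, with a median of 0.11, and the lists are read against that.

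Among the factors that load RAP with GTP, 0 of 4 tested were called with miR-376a*G, with a median of -0.18, and RAPGEF1 had the smallest p (-0.52, limma adjusted p = 0.0654). Among the GTPase-activating proteins that switch RAP off, 1 of 6 rose and 0 fell (median 0.44). SIPA1L1 rose by 0.49 (SE 0.14, limma adjusted p = 0.0256), with signals of 95.9, 106 and 123 with miR-376a*G against 70.1, 80.4 and 78.8 with control. The groups did not overlap, but the call was lost without miR-376a*G replicate 2 or 3 or any control array (adjusted p between 0.0528 and 0.105). SIPA1L2 had signals of 56.7, 54.2 and 56.3 with miR-376a*G against 215, 85.7 and 90.0 with control, a difference of -1.07 that was not called (adjusted p = 0.0957) and that was -0.65 (adjusted p = 0.000488) without both arrays.

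Of 14 tested further RAP effectors and partners, 0 rose and 2 fell with miR-376a*G (median -0.23). RGL1, an exchange factor for RAL GTPases, had signals of 234, 263 and 222 with miR-376a*G against 428, 387 and 379 with control. It fell by 0.73 (SE 0.16, limma adjusted p = 0.00774), with no overlap, and was kept without any 1 array. RASSF5, a RAP1 effector in cell adhesion, fell by 1.05 (limma adjusted p = 0.0402), a call lost without miR-376a*A replicate 2, any miR-376a*G array or any control array (adjusted p between 0.0505 and 0.132). The 1 further MAP4K kinase tested, MAP4K5, fell by 0.41 (limma adjusted p = 0.041), lost without miR-376a*A replicate 3 or any array of the groups compared (adjusted p between 0.0565 and 0.132).

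In the Hippo pathway list 4 of 16 tested genes rose and 4 fell with miR-376a*G (median -0.27). SAV1, the scaffold of the pathway's upstream kinases, had signals of 90.1, 83.2 and 91.1 with miR-376a*G against 169, 211 and 212 with control, and fell by 1.15 (SE 0.16, limma adjusted p = 0.000757). MOB1A, a coactivator of the LATS kinases, fell by 0.71 (SE 0.11, adjusted p = 0.00121). CCN1, a secreted protein whose gene is a target of YAP1, had signals of 528, 464 and 547 with miR-376a*G against 175, 230.1 and 269 with control, and rose by 1.21 (SE 0.17, adjusted p = 0.000965). These 3 were named because they had the smallest p of their list, and all 3 were kept without any 1 array. Over all probe sets, 10487 of 24316 had an unadjusted limma p under 0.05 between these groups.

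Of 7 enzymes that prenylate or ubiquitinate small GTPases, 1 rose and 2 fell with miR-376a*G (median -0.10). NEDD4, a ubiquitin ligase reported in mouse neurons to modify RAP2A in a complex with TNIK, had signals of 342, 255 and 279 with miR-376a*A, 82.3, 85.6 and 96.3 with miR-376a*G and 244, 349 and 326 with control. Those of miR-376a*G were far below both other groups. It fell by 1.77 relative to control (SE 0.17, limma adjusted p = 0.000126), and its difference was -1.93 without both arrays. FNTB, a subunit of the farnesyltransferase, had signals of 18.6, 18.7 and 16.3 on the miR-376a*G arrays, all below the array median, against 35.5, 37.5 and 43.1 with control. It is 1 of the 2 that fell (limma adjusted p = 0.00231). Since it passed the filter only through the groups where it is high, its call carries no support and no size is given. ICMT, which methylates prenylated proteins, rose by 0.37 (adjusted p = 0.0232), a call lost without any miR-376a*G array or control replicate 2 or 3 (adjusted p between 0.0633 and 0.0892).

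Among 13 other RAS-family GTPases 1 rose and 3 fell with miR-376a*G (median 0.17). RRAD, a GTPase known from muscle, had signals of 44.0, 63.7 and 61.9 with miR-376a*G against 274, 296 and 382 with control, and fell by 2.47 (SE 0.20, limma adjusted p = 5.82e-05). RRAS, which like RAP1 acts on integrins, fell by 0.95 (adjusted p = 0.014, lost without miR-376a*G replicate 1 at 0.0543 or replicate 3 at 0.0538), and RALB, a GTPase downstream of RAL exchange factors, fell by 0.45 (adjusted p = 0.00344). Scaled to the hybridisation controls, the calls of RGL1, RASSF5, MAP4K5 (-0.01), MOB1A, RRAS and RALB (-0.05) were lost. Those of SAV1, CCN1, NEDD4 and RRAD were kept, as was that of FNTB, which passed the filter only through the groups where it is high. Centred on array medians, SIPA1L1 stood at 0.26 and ICMT at 0.14, both uncalled. Without both arrays that stood apart, the genes named here as called between miR-376a*G and control had the same sign and were called again, among them SIPA1L1 at 0.43, RGL1 at -0.68, RASSF5 at -0.79, SAV1 at -1.26, MOB1A at -0.70, CCN1 at 1.04, RRAD at -2.57, RALB at -0.51 and RRAS at -0.78.

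**Figure D4:**
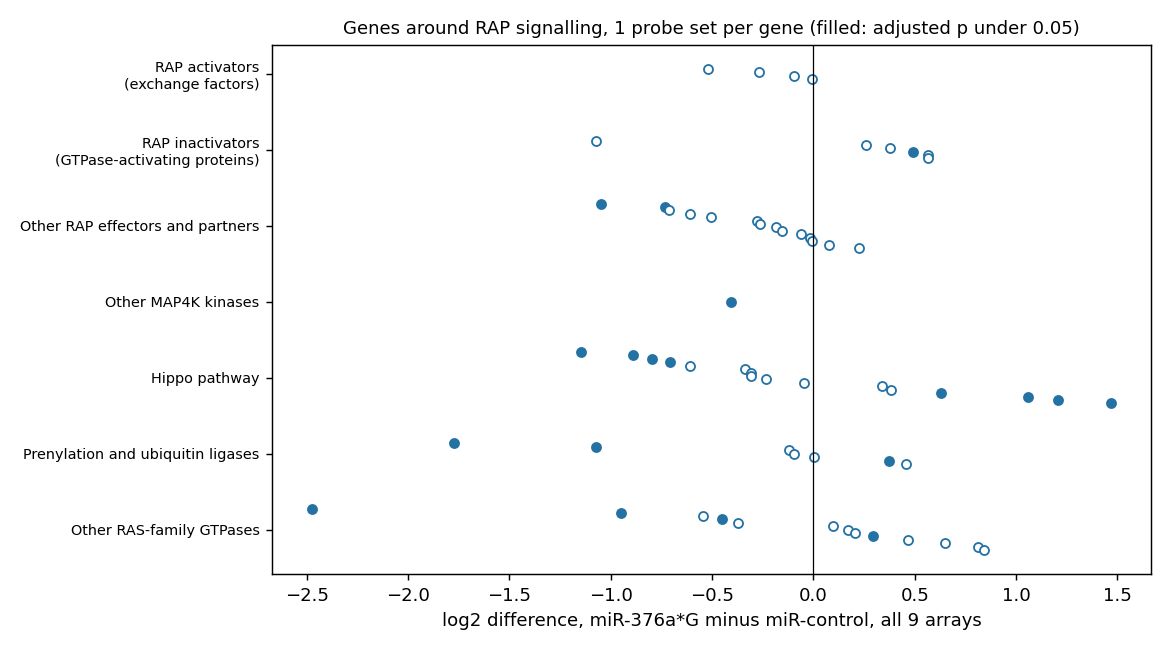
Log2 difference between miR-376a*G and control, all 9 arrays (x axis), of the 61 tested genes in 7 lists (y axis), 1 symbol per gene, filled where the adjusted p was under 0.05. Points run by value within a list, and the vertical offset carries no value. The lowest point is RRAD at -2.47, and the prenylation and ubiquitin list holds NEDD4 at -1.77.

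Without both arrays the lists also gave calls between miR-376a*A and control, where 19% of all genes tested rose and 22.7% fell. The exchange factor RAPGEF6 had signals of 333, 155 and 154 with miR-376a*A against 159, 327 and 332 with control. The replicate 1 array of each group sat at the level of the other group. Its difference was -0.37 (limma adjusted p = 0.899) with all 9 arrays, and without both it fell by 1.08 (adjusted p = 1.3e-05). SIPA1L2 differed by 0.50 with all 9 arrays and rose by 1.42 (adjusted p = 8e-06) without both, and RASA3, a GTPase-activating protein for RAS and RAP, differed by 0.50 and rose by 0.98 (adjusted p = 0.000114). In the Hippo list 4 rose and 6 fell without both, and all 10 are given here, also those outside the rule for named genes. Those that rose were the transcription factors TEAD1 (0.40), TEAD3 and TEAD4 (0.59) and CCN2 (0.69), a target gene of YAP1. No size is given for TEAD3, whose signals of 10.3 and 13.7 on control replicates 2 and 3 lay below the array medians. Those that fell were the kinase LATS1 (-0.66), its coactivator MOB1B (-0.43), the coactivators YAP1 (-0.71) and WWTR1 (-0.72), and CCN1 (-0.46) and AMOTL2 (-0.42), which are also target genes of YAP1. Target genes of YAP1 were thus called in both directions.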

How the data were processed

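RNA of U87 cells was hybridised to 9 Affymetrix arrays. The authors deposited 1 linear intensity per probe set and array for 54675 probe sets, and the submitters' processing notes name GCOS 1.4.0.036. How probes were summarised is not given in the sources used here. After trimming 2% at each end, the mean intensity was equal on all arrays, so differences are relative to the whole array. Gene names came from the probe table (42898 probe sets listed, 41097 with 1 gene symbol, 1801 with several and left out, 11777 not listed), of which 19735 of 19775 genes matched RefSeq by Entrez number.

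Intensities were tested as log2(signal + 1) with limma 3.58.1 in R 4.3.3 (1 coefficient per group, all 9 arrays, 6 residual degrees of freedom, intensity trend), over the 24316 single-gene probe sets above the array median on at least 3 arrays, with Benjamini-Hochberg adjustment over all of them and a threshold of 0.05, two-sided. The same model was checked on simulated data. Differences understate the change of dim probe sets. Within-array ratios were compared by exact permutation. The number of arrays limits the precision.

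Named were all probe sets of the members, in each list the 3 tested genes with the smallest p in each comparison with control, of which examples are printed, and the 5 genes most like RAP2A. The members, lists, tests and the setting without both arrays that stood apart were chosen with earlier results of these data known. Alternatives were 2 other pseudocounts, no filter, other scalings, array weights, 1 probe set per gene, no intensity trend, the replicate number as a block, and leaving out each array. Outside the block setting, replicate numbers were not used to pair the arrays.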

Additional observations from a re-analysis of the deposited data

Results flagged for a closer look

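Probe set 214487_s_at is assigned to RAP2A and RAP2B together and was therefore kept out of every test above. Its signals were 311, 233 and 255 with miR-376a*A, 487, 446 and 480.3 with miR-376a*G and 263, 292 and 258 with control. The miR-376a*G arrays lay above all others, with means of 266 ± 40.2 for miR-376a*A, 471 ± 22.0 for miR-376a*G and 271 ± 18.6 for control (SD, n = 3 each). The log2 difference was 0.80 between miR-376a*G and control and -0.03 between miR-376a*A and control, given as values with no test. How much of the signal came from either gene was not tested.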

How the results depend on the processing

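The number of members' probe sets called depended on the arrays and on the scaling. Leaving out 1 array at a time it was 0 between miR-376a*A and control, 1 to 11 between miR-376a*G and control (11 without miR-376a*A replicate 1, and 3, 2 and 1 without miR-376a*G replicate 1, 2 and 3, and 2 and 3 without control replicate 2 and 3, against 5 in all) and 5 to 9 for miR-376a*A relative to miR-376a*G (5 without any 1 miR-376a*G array, against 8). Without both arrays that stood apart the counts were 16, 17 and 15, and with array weights 16, 17 and 15. Scaled to the hybridisation controls they were 10 for miR-376a*G against control, all higher, and 14 in the comparison of the microRNA forms, 13 of them lower. Of all 24316 probe sets, 10000 were higher and 1850 lower in the first of these comparisons, and 1307 higher and 15081 lower in the other. With 1 probe set per gene the members' counts were 2 and 3 of 8, fewer being counted. The replicate block left 1 and 5. Same-numbered arrays did not deviate together (correlations between -0.87 and 0.04). The lowest was between the 2 arrays that stood apart, each of which resembled the opposite group. A pairing of miR-376a*A with control arrays could therefore not be judged from these values. Between miR-376a*G and the other groups they lay between -0.16 and 0.04.

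Of all calls between miR-376a*G and control, 51.5% were higher as deposited, 27.2% when centred on array medians and 84.4% when scaled to the hybridisation controls, and in the comparison of the microRNA forms 45.9%, 72.8% and 7.98%.

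Over 480 values of the 8 leading probe sets under 20 other settings, 131, 134 and 141 kept direction and side of the threshold in the 3 comparisons, 20, 2 and 9 turned sign, 9, 19 and 10 became called and 0, 5 and 0 lost the call. Between miR-376a*A and control RAP2A was -0.0048 after quantile normalization, -0.27 scaled to the hybridisation controls, -0.46 with array weights and -0.66 without both arrays, and -0.35 to 0.25 on leaving out 1 array. RAP2B was -0.19 and RAP2C -0.25 scaled to the hybridisation controls, RAP2C -0.016 with array weights and -0.070 without both, and leaving out 1 array gave -0.080 to 0.33 for RAP2B, -0.037 to 0.090 for RAP2C and -0.072 to 0.12 for RAP1A. RAP1A was -0.018 after quantile normalization and -0.26 scaled to the hybridisation controls. Between miR-376a*G and control, scaled to the hybridisation controls, RAP2C was 0.0082 and TNIK 0.062. In the comparison of the microRNA forms, scaled likewise, RAP2C was -0.26, RAP1B -0.57 and TNIK -0.56. RAP1B was -0.014 after quantile normalization, and TNIK was -0.17 with array weights and -0.23 without both. Leaving out 1 array gave -0.051 to 0.38 for RAP1B and -0.23 to 0.33 for TNIK. The cause of these changes was not tested. Of the counts of called list genes under other settings, 339 stayed within 1.5 times the count given and 81 moved further.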
